A study of Homo sapiens with 4 samples.

Results

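PI3K pathway components and genes that respond to FOXO transcription factors were followed across 4 cultures of MCF10A, a non-tumorigenic human breast epithelial line. The members are 34 listed genes, and 33 of them had a probe set annotated to that gene alone, out of 20906 genes read this way. They comprise 16 of 17 pathway components, 15 of 15 FOXO-responsive genes and both listed FOXO factors. PIK3R2, a regulatory subunit, was not analysed here. Where a gene had several probe sets, the one with the highest mean over the 4 arrays was used.

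Each culture carried 1 stable transfection and was measured on 1 array. The transfections were Her2 (the growth factor receptor kinase encoded by ERBB2), PIK3CA with the oncogenic change H1047R (PIK3CA encodes the p110-alpha catalytic subunit of PI3K), Her2 together with that variant, and LacZ, a bacterial gene that served as control. All 4 cultures grew untreated in SFIHE medium, and the labels give neither the promoter of the transgenes nor whether a line is a clone. The arrays are called Her2, mutant PIK3CA, both and LacZ after these labels. Values are log2 values made by the submitters with RMA, a method that corrects background, normalizes arrays and summarises probes, so a difference of 1 is 2-fold. Since each group is 1 array, differences could not be set against replicate error, and neither SDs nor p-values are given. Every statement below therefore describes these 4 arrays. Levels were not compared between genes, and because bulk RNA was read, fewer cells expressing a gene and less of its RNA per cell cannot be told apart.

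PI3K phosphorylates a membrane lipid when growth factor receptors or their IRS adaptors recruit it, and the lipid draws PDPK1 and the AKT kinases to the membrane. AKT then inhibits the TSC complex, which releases the growth-promoting complex mTORC1, and it phosphorylates FOXO factors, which keeps them out of the nucleus. Genes that FOXO factors activate, among them cell cycle brakes, death genes, sestrins and the receptor INSR, are therefore classed as repressed when the pathway is active. Several of them also answer to p53, stress or steroid hormones.

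The probe set for the introduced receptor went against the labels. ERBB2, read together with the microRNA gene MIR4728 inside it, had a log2 value of 4.29 on the Her2-labelled array, 8.48 on the mutant PIK3CA-labelled array and 7.39 on the array with both, against 5.96 on the LacZ array. Every direction given below for a single-oncogene array is therefore that of the array so labelled, and PIK3CA itself was not analysed here. The basal epithelial marker KRT5 lay between 7.08 and 7.52 on all arrays, but of 8 measured basal markers 2 were at least 2-fold higher and 3 lower on the array with both than on the LacZ array. CDH3 was among the lower ones, with 4.98 on the array with both, against 8.22 on the LacZ array. Of 10 luminal markers, 5 stayed under 3 on all arrays, ESR1 among them. Of the 10, 1 was at least 2-fold higher and 3 lower on the Her2-labelled array than on the LacZ array. On the mutant PIK3CA-labelled array 0 were higher and 1 lower, and on the array with both 0 were higher and 3 lower. Of 19 measured mitotic genes, 0 were at least 2-fold higher on the Her2-labelled array (where MKI67 and TOP2A were lower, by -1.21 and -1.22), 19 on the mutant PIK3CA-labelled array and 19 on the array with both than on the LacZ array, and their summed log2 values were 48.3 on the Her2-labelled array, 89.8 on the mutant PIK3CA-labelled array and 132 on the array with both, against 48.6 on the LacZ array. Of 9 measured fibroblast markers, 3 on the Her2-labelled array, 1 on the mutant PIK3CA-labelled array and 4 on the array with both were at least 2-fold higher than on the LacZ array. Their summed log2 values were 30.2 on the Her2-labelled array, 23.9 on the mutant PIK3CA-labelled array and 37.5 on the array with both, against 18.9 on the LacZ array. The higher ones included POSTN, with 9.19 on the Her2-labelled array, 7.90 on the mutant PIK3CA-labelled array and 8.62 on the array with both, against 4.07 on the LacZ array. DPT and FAP were higher on the Her2-labelled array (by 4.97 and 1.57), and DPT, LUM and DCN on the array with both (by 4.45, 5.48 and 4.32). LUM and DCN had 0.78 and 0.73 on the LacZ array, below its probe set median of 1.17. The size of their differences is therefore uncertain. Of the collagens and receptor in the list, COL1A2 and PDGFRB stayed below the median over all probe sets of an array (1.13 to 1.17) on all arrays, and COL1A1 lay between 1.79 and 2.24. Of 9 measured housekeeping genes, 3 were at least 2-fold higher on the array with both than on the LacZ array. The part of these shifts in the members' values was not tested.

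Across all measured members, 13 of 33 (39.4%) differed at least 2-fold in at least 1 of 5 comparisons. These comparisons set each oncogene array against LacZ and the array with both against each single-oncogene array. The share was 17.8% over all 20906 genes and 31.7% over the 7284 genes whose mean log2 value was at least 3, a level that 26 of the members reached, 10 of them (38.5%) with such a difference. Most genes of the table have a mean under 3, so the second share is the closer background for most members. Of the members, 5 stayed under 3 on all arrays: PIK3CD, AKT1, PDPK1, DEPTOR and PIK3IP1. Differences near 0 in these genes do not show an equal level.

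Of 16 pathway components, 5 (31.2%) differed 2-fold in at least 1 of the 5 comparisons, against 17.8% of all genes. They were PIK3R3, IRS1, INPP4B, TSC2 and DEPTOR. Of the components with a mean of at least 3, 4 of 12 (33.3%) did so, near the 31.7% of all genes with such a mean. On the Her2-labelled array 0 of 16 components differed at least 2-fold from the LacZ array, where 3.53% of all genes did. On the mutant PIK3CA-labelled array 2 of 16 did, IRS1 lower and INPP4B higher, against 4.54% of all genes. On the array with both 2 of 16 did, TSC2 and DEPTOR, both lower, against 10.9% of all genes. Of the 12 components with a mean of at least 3, 0 differed on the Her2-labelled array, 2 on the mutant PIK3CA-labelled array and 1 with both. The shares over all genes with such a mean were 5.45%, 8.98% and 21.4%. The median component differed from LacZ by -0.01 on the Her2-labelled array, -0.30 on the mutant PIK3CA-labelled array and -0.14 on the array with both, beside medians of -0.02, 0.00 and -0.04 over all genes. These comparisons share the LacZ array, and exchanging the labels of the single-oncogene arrays would exchange their counts and medians. The mutant PIK3CA-labelled array held the lowest of the 4 values for 8 of 16 components (50.0%), against 22.5% of all genes, and the LacZ array held the highest for 7 of 16 (43.8%), against 27.7% of all genes.

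**Figure D1:**
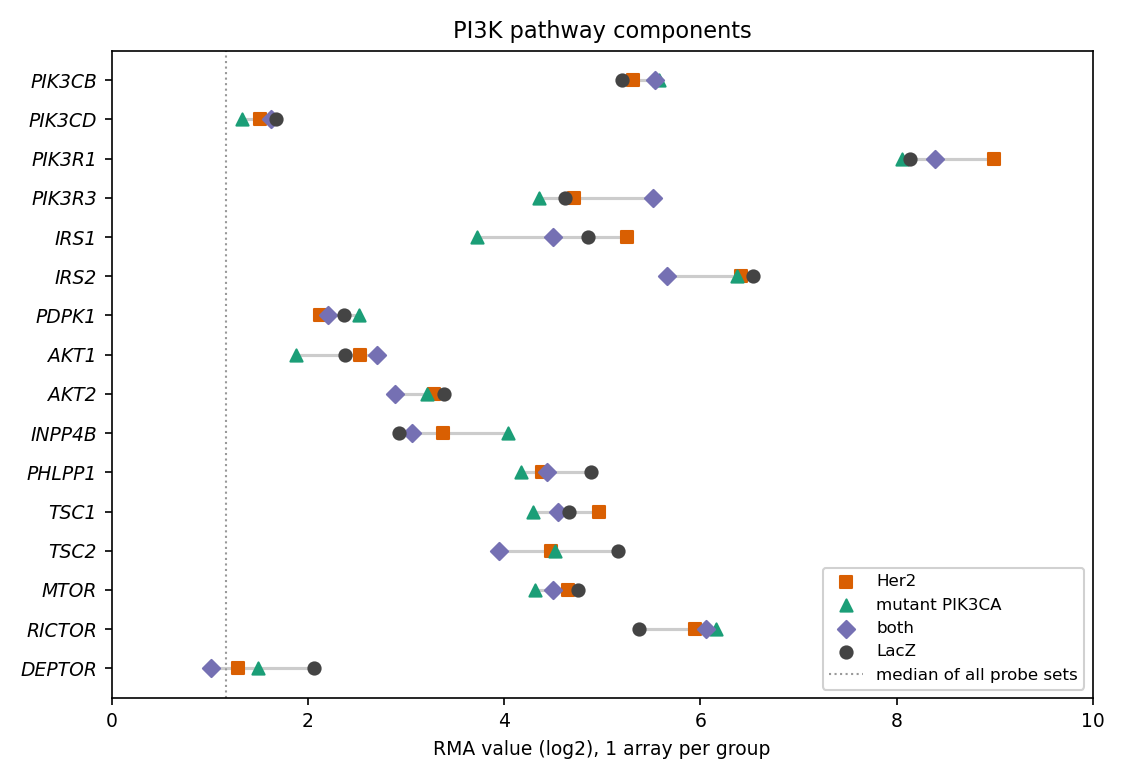
Log2 RMA values of the 16 measured pathway components (rows, ordered by role) on the Her2, mutant PIK3CA, both and LacZ arrays (1 marker per array, grey lines span the 4 values, the dotted line marks the probe set median). Most rows span less than 1 log2 unit. IRS1 is lowest on the mutant PIK3CA-labelled array at 3.72, and TSC2 is highest on the LacZ array at 5.16.

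Among the enzyme's own subunits, the catalytic subunit PIK3CB hardly differed between arrays. It had 5.32 on the Her2-labelled array, 5.58 on the mutant PIK3CA-labelled array and 5.54 on the array with both, against 5.21 on the LacZ array. PIK3CD, the catalytic subunit best known from leukocytes, lay near the probe set median on every array, between 1.33 and 1.67.

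The regulatory subunits differed more. PIK3R1 encodes p85-alpha, which holds the catalytic subunit inactive until a receptor binds it, and it had 8.99 on the Her2-labelled array, 8.06 on the mutant PIK3CA-labelled array and 8.39 on the array with both, against 8.14 on the LacZ array. The Her2-labelled array was thus the high one, 0.86 above LacZ and short of 2-fold. PIK3R3, the p55-gamma subunit, had 4.71 on the Her2-labelled array, 4.36 on the mutant PIK3CA-labelled array and 5.51 on the array with both, against 4.62 on the LacZ array. Here the array with both stood alone, 1.15 above the mutant PIK3CA-labelled array (2.23-fold), 0.81 above the Her2-labelled array and 0.89 above the LacZ array. It was the only one of 16 components at least 2-fold different between the array with both and the mutant PIK3CA-labelled array, where 8.76% of all genes were.

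The adaptors IRS1 and IRS2, which link insulin and IGF receptors to PI3K, were lowest on different arrays. IRS1 had 5.25 on the Her2-labelled array, 3.72 on the mutant PIK3CA-labelled array and 4.50 on the array with both, against 4.86 on the LacZ array. It was 2.20-fold lower on the mutant PIK3CA-labelled array than on LacZ (-1.13), and the array with both lay between these. IRS2 had 6.41 on the Her2-labelled array, 6.37 on the mutant PIK3CA-labelled array and 5.66 on the array with both, against 6.54 on the LacZ array. Its array with both was 0.71 to 0.88 below the other arrays, so 2-fold was not reached.

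The kinases of the AKT step had values near or under 3 on these arrays. AKT1 had 2.53 on the Her2-labelled array, 1.89 on the mutant PIK3CA-labelled array and 2.71 on the array with both, against 2.38 on the LacZ array. AKT2 lay between 2.89 and 3.38, and PDPK1, the kinase that activates AKT, between 2.12 and 2.53. None of these kinases differed 2-fold in any of the 5 comparisons.

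The phosphatases that oppose the pathway went different ways. INPP4B removes a phosphate from a PI3K lipid product, and it had 3.38 on the Her2-labelled array, 4.04 on the mutant PIK3CA-labelled array and 3.06 on the array with both, against 2.93 on the LacZ array. It was 2.15-fold higher on the mutant PIK3CA-labelled array than on LacZ (1.11), while the array with both was close to LacZ (0.13). PHLPP1, which dephosphorylates AKT, had 4.39 on the Her2-labelled array, 4.18 on the mutant PIK3CA-labelled array and 4.44 on the array with both, against 4.89 on the LacZ array. All 3 oncogene arrays were below LacZ for it, by 0.45 to 0.71.

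Of the TSC complex, which holds mTORC1 in check, TSC2 was the component with the largest difference between the array with both and LacZ. TSC2 had 4.48 on the Her2-labelled array, 4.52 on the mutant PIK3CA-labelled array and 3.95 on the array with both, against 5.16 on the LacZ array. All 3 oncogene arrays were lower, by -0.69, -0.64 and -1.21, and the departure from additive single effects was 0.11. Its partner TSC1 had 4.97 on the Her2-labelled array, 4.30 on the mutant PIK3CA-labelled array and 4.55 on the array with both, against 4.67 on the LacZ array, with no difference of 2-fold.

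Of the mTOR complexes, the kinase MTOR lay between 4.32 and 4.76. RICTOR, the defining subunit of mTORC2, the complex that completes AKT activation, had 5.95 on the Her2-labelled array, 6.16 on the mutant PIK3CA-labelled array and 6.06 on the array with both, against 5.38 on the LacZ array. All 3 oncogene arrays were higher, by 0.57 to 0.78. DEPTOR, an inhibitor of both mTOR complexes, had 1.28 on the Her2-labelled array, 1.49 on the mutant PIK3CA-labelled array and 1.01 on the array with both, against 2.06 on the LacZ array. The 3 oncogene arrays were lower, but the values lie near the probe set median, and the difference of -1.05 between the array with both and LacZ lay at the threshold (-0.98 after cyclic loess normalization).

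The FOXO-responsive genes did not move in 1 direction. On the Her2-labelled array 2 of 15 differed at least 2-fold from LacZ, SESN3 higher and FBXO32 lower, against 3.53% of all genes. On the mutant PIK3CA-labelled array 3 did, GADD45A higher and BCL6 and FBXO32 lower, against 4.54% of all genes. With both, 3 did, SESN3 and GADD45A higher and BCL2L11 lower, against 10.9% of all genes. Of the 13 with a mean of at least 3, 1 differed on the Her2-labelled array, 3 on the mutant PIK3CA-labelled array and 2 on the array with both, against 5.45%, 8.98% and 21.4% of all genes with such a mean. The median FOXO-responsive gene differed from LacZ by 0.26 on the Her2-labelled array, -0.10 on the mutant PIK3CA-labelled array and -0.40 on the array with both, beside -0.02, 0.00 and -0.04 over all genes. Of 15 genes, 5 were lower on all 3 oncogene arrays (TXNIP, BCL2L11, INSR, FBXO32 and PDK4), as were 27.7% of all genes, and 3 were higher on all 3 (CCNG2, SESN3 and GADD45A), as were 24.0% of all genes.

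FOXO factors bind DNA at GTAAACA, of which TAAACA is the core. The 250 bases before the first listed start of each gene were searched for both on both strands. On the other strand these read TGTTTAC and TGTTTA, and each GTAAACA also counts as TAAACA. Any other starts of a gene were not searched. Of the 13 FOXO-responsive members with a sequence in the RefSeq table of GRCh38.p14, 2 held GTAAACA (TXNIP and BCL2L11) and 4 held TAAACA (with KLF9 and RBL2). Of 27305 genes in that table, 2.98% held GTAAACA and 11.1% held TAAACA, and of 15 pathway components 0 held either. The 4 windows below are shown because SESN3 had the widest span of values, KLF9 the largest departure from additivity among FOXO-responsive genes, and BCL2L11 and TXNIP hold the longer motif. They are printed 5′ to 3′ on the gene's strand, with motif letters in capitals. SESN3 lies at chr11:95232476-95232725 on the minus strand, KLF9 at chr9:70414658-70414907 on the minus strand, BCL2L11 at chr2:111120664-111120913 on the plus strand and TXNIP at chr1:145996580-145996829 on the minus strand.
SESN3: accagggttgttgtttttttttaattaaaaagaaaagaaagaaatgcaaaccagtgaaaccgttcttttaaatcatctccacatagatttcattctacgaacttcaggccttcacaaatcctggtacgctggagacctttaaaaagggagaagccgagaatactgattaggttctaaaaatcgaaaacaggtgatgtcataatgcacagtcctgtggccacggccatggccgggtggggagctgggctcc
KLF9: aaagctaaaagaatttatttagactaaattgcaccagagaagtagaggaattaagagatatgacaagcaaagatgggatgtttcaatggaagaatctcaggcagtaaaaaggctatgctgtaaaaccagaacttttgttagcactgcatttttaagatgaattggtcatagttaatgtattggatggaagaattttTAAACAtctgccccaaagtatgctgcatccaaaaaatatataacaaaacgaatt
BCL2L11: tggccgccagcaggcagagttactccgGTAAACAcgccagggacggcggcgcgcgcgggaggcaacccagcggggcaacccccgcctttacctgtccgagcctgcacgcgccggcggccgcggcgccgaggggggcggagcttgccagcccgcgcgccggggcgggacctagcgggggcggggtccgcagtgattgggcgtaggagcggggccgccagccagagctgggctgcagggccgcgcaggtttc
TXNIP: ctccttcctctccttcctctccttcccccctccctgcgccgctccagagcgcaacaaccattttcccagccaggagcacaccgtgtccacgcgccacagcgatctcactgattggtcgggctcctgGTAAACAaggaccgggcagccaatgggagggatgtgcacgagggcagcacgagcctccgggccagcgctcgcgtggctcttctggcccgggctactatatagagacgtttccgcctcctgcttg
The first base of the TAAACA match lies 222 bases before the start in BCL2L11, 123 in TXNIP and 54 in KLF9. The SESN3 window holds neither motif. A match describes letters in the window and is not a bound site.

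**Figure D2:**
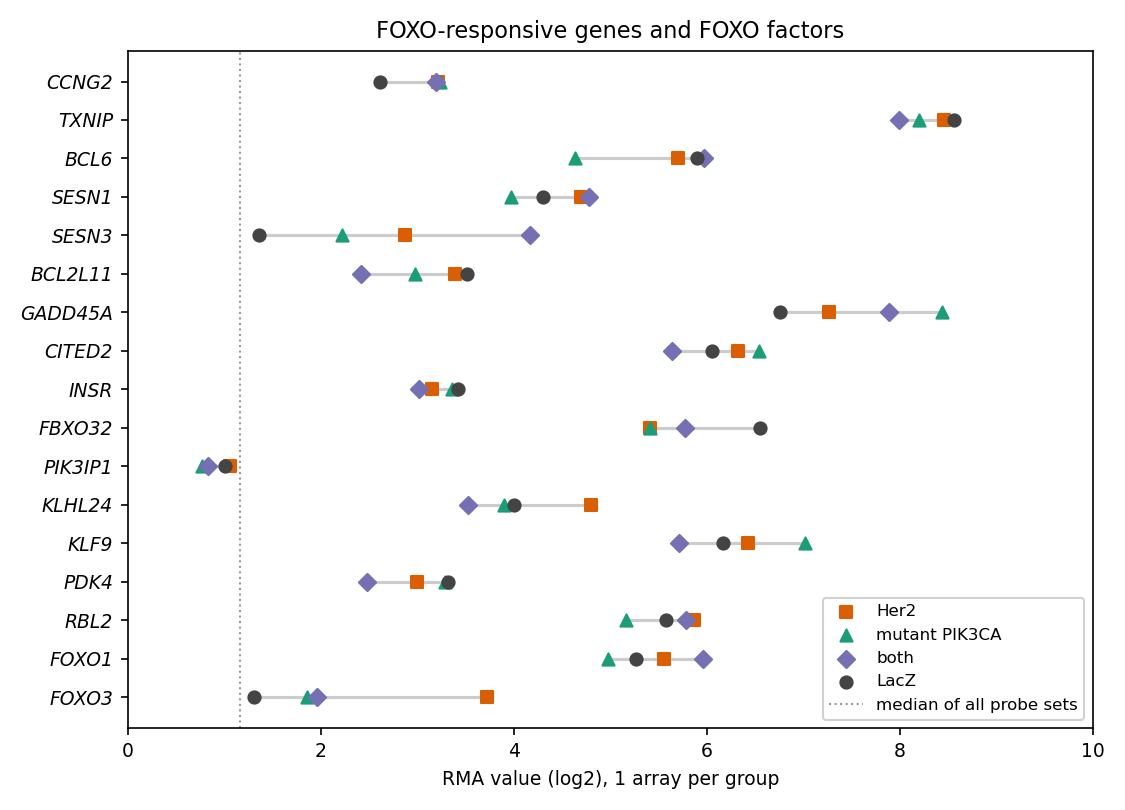
Log2 RMA values of the 15 FOXO-responsive genes and the factors FOXO1 and FOXO3 (rows) on the Her2, mutant PIK3CA, both and LacZ arrays (1 marker per array, grey lines span the 4 values, the dotted line marks the probe set median). SESN3 had 4.17 with both, against 1.36 on LacZ, and FOXO3 stands out on the Her2-labelled array at 3.73.

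Among the sestrins, which restrain mTORC1 under stress, SESN3 had the widest span of any member. SESN3 had 2.88 on the Her2-labelled array, 2.22 on the mutant PIK3CA-labelled array and 4.17 on the array with both, against 1.36 on the LacZ array. The array with both was 2.81 above LacZ, the Her2-labelled array 1.51 and the mutant PIK3CA-labelled array 0.86. Since the LacZ value lies near the probe set median, the size of these differences is uncertain. SESN1 had 4.70 on the Her2-labelled array, 3.97 on the mutant PIK3CA-labelled array and 4.78 on the array with both, against 4.31 on the LacZ array, and did not differ 2-fold in any of the 5 comparisons.

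Cell cycle and growth arrest genes included the largest difference on the mutant PIK3CA-labelled array. GADD45A, a growth arrest gene that p53 and stress also induce, had 7.27 on the Her2-labelled array, 8.44 on the mutant PIK3CA-labelled array and 7.88 on the array with both, against 6.76 on the LacZ array. It was 3.20-fold higher on the mutant PIK3CA-labelled array than on LacZ (1.68) and 2.18-fold higher on the array with both (1.12). CCNG2, an unconventional cyclin that slows the cell cycle, had 3.22 on the Her2-labelled array, 3.23 on the mutant PIK3CA-labelled array and 3.19 on the array with both, against 2.61 on the LacZ array. The 3 oncogene arrays agreed within 0.04 of each other for CCNG2. RBL2, the pocket protein p130 of quiescent cells, lay between 5.17 on the mutant PIK3CA-labelled array and 5.87 on the Her2-labelled array. The mitotic genes were higher on the arrays labelled mutant PIK3CA and both, as was GADD45A, and their part in its values was not tested.

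BCL6 and BCL2L11 were lower on different arrays. BCL6, a transcriptional repressor, had 5.70 on the Her2-labelled array, 4.64 on the mutant PIK3CA-labelled array and 5.97 on the array with both, against 5.90 on the LacZ array. Only the mutant PIK3CA-labelled array was low among the 4, 2.40-fold below LacZ (-1.26), and the array with both was 2.51-fold above it (1.33). BCL2L11, the death-promoting BCL2 family member BIM, had 3.39 on the Her2-labelled array, 2.98 on the mutant PIK3CA-labelled array and 2.41 on the array with both, against 3.52 on the LacZ array. The LacZ array was the highest and the array with both the lowest, 2.16-fold below LacZ (-1.11).

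FBXO32, the ubiquitin ligase subunit atrogin-1 known from wasting muscle, was lower than LacZ on all 3 oncogene arrays. FBXO32 had 5.41 on the Her2-labelled array, 5.41 on the mutant PIK3CA-labelled array and 5.77 on the array with both, against 6.56 on the LacZ array. The differences were -1.15, -1.15 and -0.78, so the array with both was no lower than the single-oncogene arrays.

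The metabolic and hormone-linked genes stayed within 2-fold of LacZ on all 3 oncogene arrays. TXNIP, an inhibitor of thioredoxin and of glucose uptake, had 8.46 on the Her2-labelled array, 8.20 on the mutant PIK3CA-labelled array and 7.99 on the array with both, against 8.56 on the LacZ array. PDK4, a kinase that shuts off pyruvate oxidation, had 3.00 on the Her2-labelled array, 3.29 on the mutant PIK3CA-labelled array and 2.49 on the array with both, against 3.32 on the LacZ array. The insulin receptor INSR lay between 3.02 and 3.42, and PIK3IP1, a transmembrane inhibitor of PI3K, between 0.77 and 1.06. For TXNIP, PDK4 and INSR the array with both was the lowest of the 4, as it was for 7 of 15 FOXO-responsive genes (46.7%) and 30.6% of all genes.

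KLF9, CITED2 and KLHL24 were low on the array with both and high on a single-oncogene array. KLF9, a zinc finger factor induced by steroid hormones, had 6.42 on the Her2-labelled array, 7.02 on the mutant PIK3CA-labelled array and 5.72 on the array with both, against 6.16 on the LacZ array. The array with both was 2.46-fold below the mutant PIK3CA-labelled array (-1.30). CITED2, a coregulator that binds CBP and p300, had 6.32 on the Her2-labelled array, 6.54 on the mutant PIK3CA-labelled array and 5.64 on the array with both, against 6.06 on the LacZ array. KLHL24, a substrate adaptor for ubiquitin ligases, had 4.80 on the Her2-labelled array, 3.90 on the mutant PIK3CA-labelled array and 3.53 on the array with both, against 4.00 on the LacZ array. For KLHL24 the array with both was 2.41-fold below the Her2-labelled array (-1.27).

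The FOXO factors themselves behaved differently from each other. FOXO1 had 5.55 on the Her2-labelled array, 4.98 on the mutant PIK3CA-labelled array and 5.96 on the array with both, against 5.26 on the LacZ array. FOXO3 had 3.73 on the Her2-labelled array, 1.86 on the mutant PIK3CA-labelled array and 1.96 on the array with both, against 1.31 on the LacZ array. Thus FOXO3 was 5.35-fold higher on the Her2-labelled array than on LacZ (2.42), where the other 3 arrays lay under 2. A second probe set annotated to FOXO3 did not show this, with 1.20 on the Her2-labelled array, 1.12 on the mutant PIK3CA-labelled array and 0.88 on the array with both, against 1.04 on the LacZ array. With the 2 probe sets averaged, the difference between the Her2-labelled array and LacZ was 1.29. Since the LacZ values of FOXO3 lie near the probe set median, the size of its differences is uncertain. FOXO3 has a close copy, FOXO3B, and which of them each probe set reads was not tested.

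Each oncogene label can be measured in 2 pairs of arrays that share none: an array with the oncogene against LacZ, and the array with both against the other single-oncogene array. Of 33 members, 1 passed 2-fold in the same direction in both Her2 pairs, as did 1.04% of all genes: SESN3, higher by 1.51 and 1.94. Neither filter on low values kept it, and with the labels of the single-oncogene arrays exchanged it would belong to the mutant PIK3CA pairs. In both mutant PIK3CA pairs 0 of 33 members did so, against 1.16% of all genes. SESN3 came nearest among the higher ones (0.86 and 1.29) and IRS1 among the lower ones (-1.13 and -0.76). The sign was the same in both pairs for 20 of 33 members (60.6%) with the Her2 label, against 56.9% of all genes, and for 20 of 33 with the mutant PIK3CA label, against 55.2% of all genes, both near the background. Between the array with both and the Her2-labelled array, 0 of 16 components and 2 of 15 FOXO-responsive genes differed 2-fold (SESN3 higher and KLHL24 lower). Of all genes 7.05% did, 4.41% higher and 2.64% lower, and 12.2% of genes with a mean of at least 3, where 1 of 13 FOXO-responsive genes did. Between the array with both and the mutant PIK3CA-labelled array 3 FOXO-responsive genes differed 2-fold (BCL6 and SESN3 higher and KLF9 lower), against 5.28% of all genes higher and 3.48% lower, and 2 of 13 with a mean of at least 3 did, against 15.7% of all genes with such a mean.

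**Figure D3:**
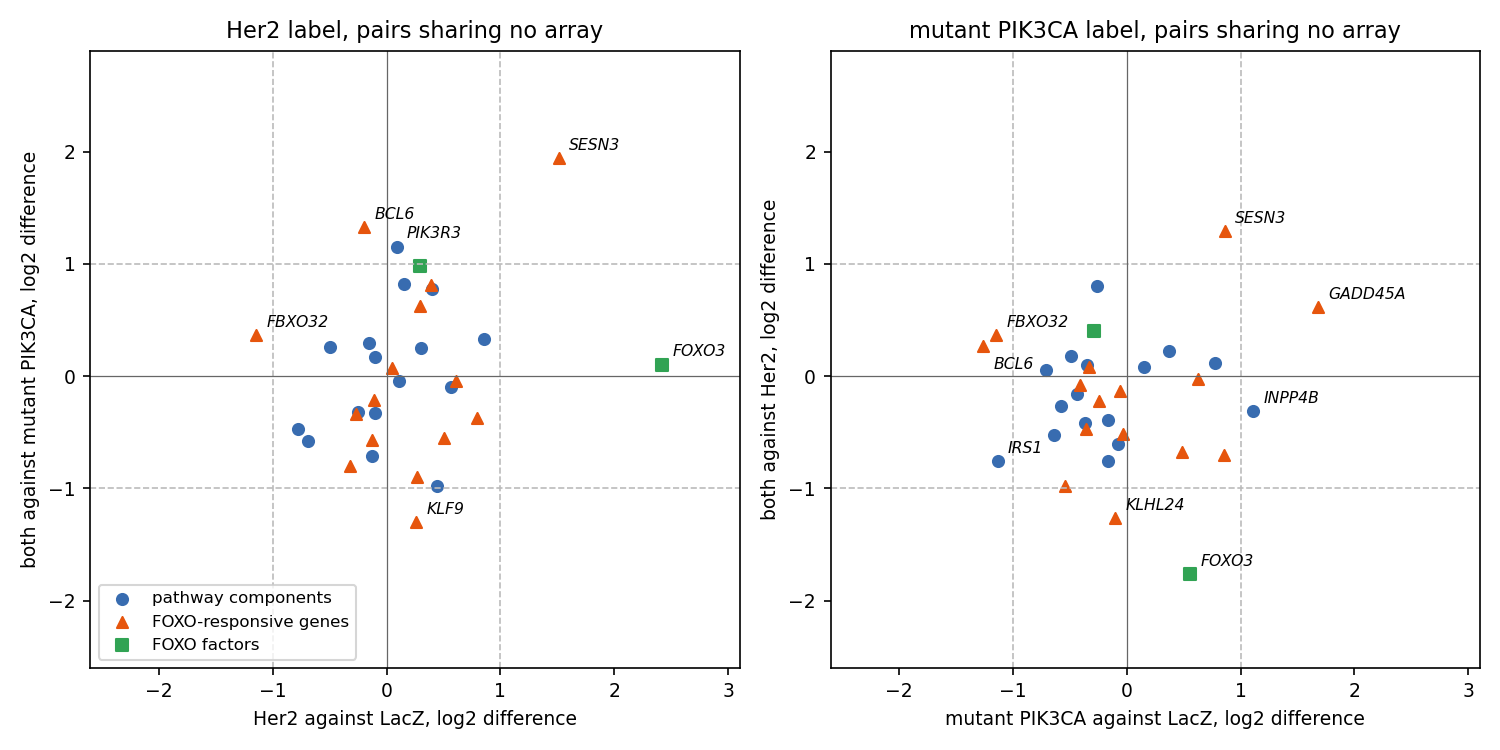
Log2 differences of the 33 measured members in the first pair (x axis) and the second pair (y axis) for the Her2 label (left) and the mutant PIK3CA label (right). Points are genes, dashed lines mark 2-fold, and named genes pass 2-fold in at least 1 pair. SESN3, on the left at 1.51 and 1.94, is the only member past 2-fold in the same direction in both pairs of a label.

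Departure from additivity is the value with both minus each single-oncogene value plus the LacZ value, and it is 0 where the effects of the 2 labels add on the log2 scale. It reached 1 log2 unit in 9 of 33 members (27.3%), against 10.2% of all genes. With a mean of at least 3 it did so in 8 of 26 members (30.8%), against 15.9% of genes with such a mean. Among the 15 FOXO-responsive genes it did so in 6, and among the 16 components in 2. Of the 9 members, 3 lay above what adding would give, as did 5.81% of all genes: BCL6 by 1.53, FBXO32 by 1.51 and PIK3R3 by 1.07. The other 6 lay below it, as did 4.35% of all genes: FOXO3 at -2.32, KLF9 at -1.56, INPP4B at -1.42, KLHL24 at -1.16, CITED2 at -1.16 and GADD45A at -1.06. Of the 26 members with a mean of at least 3, 3 lay above, against 8.37% of genes with such a mean. Below lay 5 of the 26, against 7.52%, and FOXO3 did not reach that mean. FOXO3 had -1.36 when its 2 probe sets were averaged. GADD45A lay at the threshold, with -0.98 after quantile and -0.95 after cyclic loess normalization. BCL6 was 2-fold lower and INPP4B 2-fold higher than LacZ on the mutant PIK3CA-labelled array and on no other, and FBXO32 was about equally low on both single-oncogene arrays with no further decrease on the array with both. The value combines 4 arrays, so the error of each enters it, and it was not tested.

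**Figure D4:**
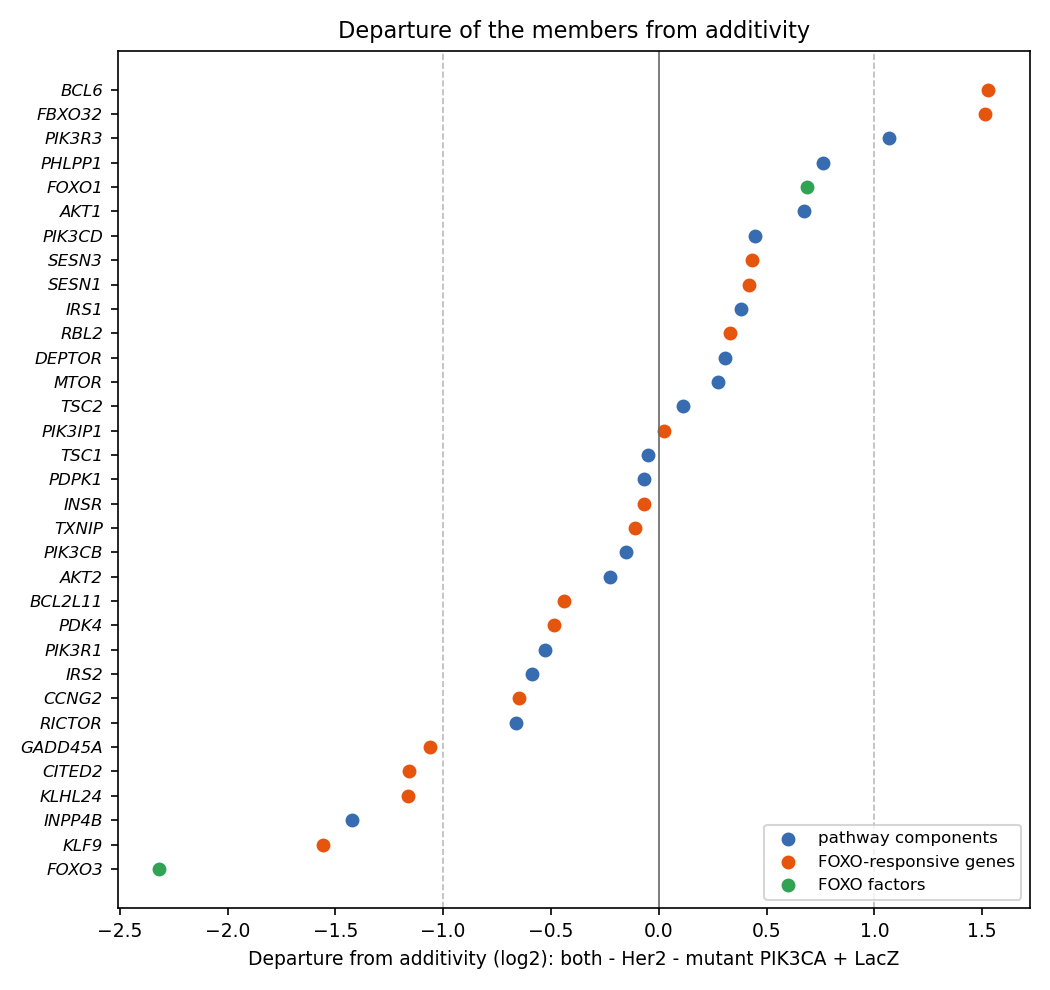
Departure from additivity (x axis, log2) of the 33 measured members (rows, sorted), computed from 1 array per group. Dashed lines mark 1 log2 unit. BCL6 and FBXO32 lie highest at 1.53 and 1.51, and FOXO3 lowest at -2.32 (-1.36 with its 2 probe sets averaged).

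Other genes of the pathway and other FOXO-responsive genes were measured too, and 8 of 32 and 9 of 26 of them stayed under 3 on all arrays, where a missing difference does not show an equal level. Of 32 measured of 38 other pathway genes, 0 differed 2-fold from LacZ on the Her2-labelled array and 0 on the mutant PIK3CA-labelled array. On the array with both 1 was at least 2-fold higher, against 6.50% of all genes, and 4 were at least 2-fold lower, against 4.44% of all genes. Over genes with a mean of at least 3 these shares were 11.6% and 9.76%. INPP5D, a lipid phosphatase of blood cells, was the higher one (1.10), with 3.06 on the array with both and 1.96 on the LacZ array. The lower ones were TRIB3, an AKT-binding pseudokinase induced by stress (-1.71), AKT1S1, an mTORC1 inhibitor (-1.27), the receptor IGF1R (-1.24) and the adaptor GRB2 (-1.03). Of 26 measured of 28 other FOXO-responsive genes, 0 were higher and 1 lower (BBC3) on the Her2-labelled array than on LacZ, against 1.86% and 1.67% of all genes. On the mutant PIK3CA-labelled array 1 was higher and 1 lower, against 2.61% and 1.93% of all genes. The higher one there was PLK2, a p53-induced kinase, at 2.38, and the lower one TNFSF10, the death ligand TRAIL, at -1.22. With both, 0 were higher, against 6.50% of all genes and 11.6% of genes with a mean of at least 3. On that array 5 were lower, against 4.44% and 9.76%. The lower ones were TRIB1 (-1.82), ERBB3, a receptor that partners with Her2 (-1.59), TNFSF10 (-1.30), YPEL3 (-1.24) and SESN2. Of these, SESN2 lay at the threshold. TNFSF10, ERBB3 and YPEL3 had low values with both (1.38, 2.10 and 2.63), so the size of their differences is uncertain. The list's median with both was -0.27, beside -0.04 over all genes. These genes outside the members were named after their values were seen.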

How the data were processed

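Total RNA of 4 MCF10A cultures was read on 1 Affymetrix whole-transcript array each. The authors deposited a log2 value for each probe set, and RMA and the package oligo are named per the submitters' processing notes. Their versions and the genome build were not given in the sources used here, and the log base follows from RMA and the range of the values (-0.77 to 12.35). Of 53617 probe sets, 23871 carry 1 gene symbol in the platform annotation, 1842 several and 27904 have no name here. The RefSeq table of GRCh38.p14 supplied current symbols by gene identifier. ERBB2, PIK3CA and small RNAs were left out of the 20906 genes counted.

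Differences of log2 values were taken between arrays, and 2-fold (a difference of 1) was the threshold. No filter on low values was applied, and a gene with several probe sets was read from the one with the highest mean. Every measured member was named, and those 2-fold different or departing from additivity by 1 log2 unit were given with all values. The members, lists and tests were chosen with earlier results of these data known. Alternatives were quantile and cyclic loess normalization (3 iterations, limma 3.58.1 in R 4.3.3), the mean of a gene's probe sets, a value of at least 5 on 1 array, a mean of at least 3, a 1.5-fold threshold and swapped labels for the single-oncogene arrays. The code was tested on simulated data. The number of arrays limits the precision.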

Additional observations from a re-analysis of the deposited data

Results flagged for a closer look

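In 9 members the 2 pairs of arrays for the same label pointed opposite ways while the departure from additivity reached 1 log2 unit, as in 8.80% of all genes. They are the members already described as departing from additivity. The second pair minus the first equals the departure for either label, so the labels do not give separate evidence. These differences were not tested, and each rests on 1 array per group. For both labels this held for BCL6, whose departure was 1.53. It was lower with the Her2 label in the first pair (-0.20) and higher in the second (1.33), and with the mutant PIK3CA label it was -1.26 and 0.27. FBXO32 (1.51) had -1.15 and 0.37 with the Her2 label and -1.15 and 0.36 with the mutant PIK3CA label. KLF9 (-1.56) had 0.26 and -1.30 with the Her2 label and 0.85 and -0.71 with the mutant PIK3CA label. INPP4B (-1.42) had 0.45 and -0.98 with the Her2 label and 1.11 and -0.32 with the mutant PIK3CA label. CITED2 (-1.16) had 0.27 and -0.89 with the Her2 label and 0.48 and -0.68 with the mutant PIK3CA label. For the Her2 label alone it held for GADD45A (0.51 and -0.56, departure -1.06) and KLHL24 (0.79 and -0.37, departure -1.16). For the mutant PIK3CA label alone it held for PIK3R3 (-0.26 and 0.81, departure 1.07) and FOXO3 (0.56 and -1.76, departure -2.32).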

How the results depend on the processing

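Neither quantile nor cyclic loess normalization turned any of the 20 member differences of at least 2-fold, and no member difference moved by more than 0.16 under quantile or 0.12 under cyclic loess normalization. Both took INPP4B (both against mutant PIK3CA) past 2-fold, so that 2 components differed in both against mutant PIK3CA. Quantile normalization also took BCL2L11 (both against Her2) past 2-fold (-1.06), which made 3 FOXO-responsive genes in that comparison. With cyclic loess BCL2L11 lay at the threshold, and that count stayed at 2. Cyclic loess brought DEPTOR just under 2-fold (-0.98), which left 1 component in both against LacZ. Both normalizations took the departure of GADD45A under 1 log2 unit (-0.98 with quantile and -0.95 with cyclic loess), which left 8 departing members. The mean of all probe sets changed FOXO3 alone among the members, by up to 1.13, and changed no count by over 1.5 times.

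With a mean of at least 3, the counts became 1 component in both against LacZ, 1 FOXO-responsive gene in Her2 against LacZ and in both against Her2, and 0 members different the same way in both Her2 pairs, because SESN3 was left out. With a value of at least 5 on 1 array, 1 of 7 components was 2-fold different in mutant PIK3CA against LacZ and in both against LacZ. Of 7 FOXO-responsive genes, 1 then differed in Her2 against LacZ, 3 in mutant PIK3CA against LacZ and 1 in both against LacZ. In both against mutant PIK3CA 2 of the 7 did, and in both against Her2 0. The same way in both Her2 pairs, 0 members differed. Of genes passing that filter, 5.52% differed 2-fold in Her2 against LacZ, 11.2% in mutant PIK3CA against LacZ and 24.9% in both against LacZ. In both against mutant PIK3CA 18.9% did, and in both against Her2 15.2%. Under that filter the component median was 0.26 in both against LacZ and -0.53 in both against Her2, and the FOXO-responsive median -0.36 in mutant PIK3CA against LacZ.

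At 1.5-fold, the component counts were 3 in Her2 against LacZ, 5 in mutant PIK3CA against LacZ, 5 in both against LacZ, 5 in both against mutant PIK3CA and 4 in both against Her2. The FOXO-responsive counts in that order were 4, 6, 5, 7 and 6. Of all genes 15.4%, 16.5%, 25.5%, 21.5% and 19.1% passed 1.5-fold in these comparisons. Then 3 members differed the same way in both mutant PIK3CA pairs, against 4.69% of all genes, and 15 departed from additivity by 1.5-fold, against 27.2% of all genes.

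Exchanging the labels of the single-oncogene arrays swaps the comparisons that involve them. The component counts became 2 in Her2 against LacZ, 0 in mutant PIK3CA against LacZ, 0 in both against mutant PIK3CA and 1 in both against Her2. The component medians became -0.30, -0.01, -0.22 and 0.07 in that order, with -0.22 and 0.07 each turned in sign. The FOXO-responsive median became -0.10 in Her2 against LacZ and 0.26 in mutant PIK3CA against LacZ, each turned in sign. SESN3 would then be the 1 member different the same way in both mutant PIK3CA pairs, and 0 would be in the Her2 pairs. Medians were called moved at a shift of 0.2. No paired analysis was possible because each group has 1 array.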
